A study of Mus musculus with 30 samples.

Results

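The 6 genes described here encode the chains of the collagens that build the thin fibril of cartilage: Col2a1 for type II, Col9a1, Col9a2 and Col9a3 for type IX, and Col11a1 and Col11a2 for type XI. They were chosen by name, and all 6 were found by Ensembl identifier among the 43629 genes of the read count table, of which 27445 had at least 1 count. Each of the 6 was counted in all 30 libraries, with a lowest count of 49 reads, for Col9a1, and all 6 passed the filter on low counts in every fit.

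The libraries were made from poly(A) RNA of the whole fracture callus, with stranded adapters, in male C57BL/6J mice. All mice were 20 weeks old at surgery and carried the same injury, an open osteotomy of the right tibia held by an intramedullary nail. Lean mice received a lean diet, and diet-induced obese (DIO) mice a high-fat diet, before surgery and until harvest. Calli of both diets were taken 3, 5, 7 and 10 days after fracture (d3 to d10) and those of DIO mice also on d14 and d21, from 3 mice at each point. Lean callus of d14 and d21 and unfractured bone were not analysed here, so the DIO groups of d14 and d21 had no lean counterpart, and each diet is represented by males of 1 inbred strain. Total counts ran from 13247122 to 26365620 reads per library (median 16854427). In such bulk RNA, fewer cells of a type and less RNA per cell cannot be told apart.

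Type II collagen is a homotrimer of the Col2a1 chain and makes up most of the fibril. Type XI collagen forms the core on which the fibril assembles, from the Col11a1 and Col11a2 chains and a further chain that is itself a product of Col2a1. Type IX collagen, a trimer of the 3 Col9 chains, does not form fibrils but sits on the fibril surface, covalently linked to type II. In a healing fracture the soft callus is cartilage, whose chondrocytes make these collagens under the transcription factor Sox9 with its partners Sox5 and Sox6, before bone replaces it, while the type XI chains are also made outside cartilage, where they associate with type V collagen.

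Lean d10 replicate 1 stood apart from the other libraries. Its median correlation with the 2 other libraries of its group was 0.944 over log2 CPM (read counts normalised to the scaled library total), against 0.957 to 0.984 elsewhere, and its scaling factor was 0.779 against 0.914 to 1.09. The summed level of 8 skeletal muscle markers, led by Acta1, was 1071 CPM in this callus against 14643 and 10103 in the other 2 lean calli of d10. The 6 collagens took up 5.24%, 1.51% and 1.31% of all counts in lean d10 replicates 1, 2 and 3. The level and test results of the 6 collagens and the list counts of this group are therefore also given without replicate 1. For single genes of the lists, the sizes of changes that involve lean d10 are given with all libraries only. The list counts without replicate 1 were added after seeing the data. In lean callus of d5 and d7, too, the library with the most Col2a1, replicate 3 on both days, had the lowest muscle sum of its group (4812 and 5957 CPM against 12104 to 18959 in the other 4 libraries). The same held in lean callus of d3 and DIO callus of d5 and d14. In DIO callus of d10 and d21 the library with the most Col2a1 had the highest muscle sum, and in that of d3 and d7 neither. Over the 30 libraries the correlation of single muscle markers with Col2a1 ran from -0.155 (Myh2) to 0.212 (Actn3). The part of muscle in the collagen values was not tested.

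The genes lie on 6 chromosomes of GRCm38. Col2a1 (ENSMUSG00000022483) lies on the minus strand at chr15:97975602-98004695. The other 5 genes lie on the plus strand, Col9a1 (ENSMUSG00000026147) at chr1:24177610-24252684, Col9a2 (ENSMUSG00000028626) at chr4:121039385-121055322, Col9a3 (ENSMUSG00000027570) at chr2:180597790-180622189, Col11a1 (ENSMUSG00000027966) at chr3:114030540-114220718 and Col11a2 (ENSMUSG00000024330) at chr17:34039437-34066685. Of the exon sequence of Col9a3, 234 bases (6.07%) overlap Tcfl5 on the opposite strand, and reads there cannot be assigned with certainty because the strand option of the counting is not given in the sources used here. The exons of the other 5 genes overlap no other gene.

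The 150 bases before the RefSeq starts of 3 members are printed because the transcripts of types II and IX moved together over the days while those of type XI moved less. RefSeq tables used here held no such entry for Col2a1 and Col9a3, and the window of Col9a2 is described but not printed because it lies within an annotated exon. The sequences are from RefSeq on GRCm38.p6, plus strand, 5′ to 3′, with the letters of matched motifs in capitals:
Col9a1, chr1:24177460-24177609: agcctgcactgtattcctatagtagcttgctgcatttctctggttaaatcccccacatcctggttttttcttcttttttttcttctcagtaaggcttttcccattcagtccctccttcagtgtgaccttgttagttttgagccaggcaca
Col11a1, chr3:114030390-114030539: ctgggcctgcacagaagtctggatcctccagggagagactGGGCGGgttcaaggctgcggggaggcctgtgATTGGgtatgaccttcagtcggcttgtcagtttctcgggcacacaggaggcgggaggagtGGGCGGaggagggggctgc
Col11a2, chr17:34038988-34039137: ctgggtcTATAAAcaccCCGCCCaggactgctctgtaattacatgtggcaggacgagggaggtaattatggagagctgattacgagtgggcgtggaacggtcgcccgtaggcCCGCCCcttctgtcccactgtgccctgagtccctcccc
The motifs searched on both strands were AACAAT and ACAAAG, which SOX proteins can bind, the GC box GGGCGG, the CCAAT box and TATAAA, none of which holds another. The stretch before Col11a1 held 2 GC boxes and 1 CCAAT box, the stretch before Col11a2 held 2 GC boxes and 1 TATAAA, and the stretch before the upstream start of Col9a1 held none of the 5. The window of Col9a2 held 2 GC boxes, so that GC boxes were not confined to the type XI windows. Over 32851 starts with the same window, 28.6% held the GC box, 24.5% the CCAAT box, 7.57% TATAAA, 5.31% AACAAT and 9.88% ACAAAG. Col9a1 has a second RefSeq start within the gene, whose window at chr1:24195053-24195202 held a CCAAT box, and the count table holds 1 value per gene, so that reads from its starts cannot be told apart. A match of letters is a description and not a binding site.

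On the scale of CPM per kilobase of exon, on which genes can be compared, Col2a1 was the most abundant of the 6 at its peak and the type XI chains were the most abundant on d3. In lean callus of d3, Col11a2 stood at 115 ± 52.1 and Col11a1 at 40.3 ± 12.1 CPM per kb, and Col2a1 at 14.2 ± 2.98 (mean ± SD, n = 3 here and below). By d10 in lean callus, Col2a1 had a level of 2266 ± 2429 CPM per kb against 585 ± 287 for Col11a2, or 865 against 420.1 without replicate 1. In DIO callus of d7 the levels were 2104 ± 966 for Col2a1 and 459 ± 179.8 for Col11a2, and on d21 they were 24.6 ± 27 and 190.4 ± 37.3 CPM per kb.

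The share of the 6 transcripts that came from the type XI genes was therefore high on d3 and low where Col2a1 was highest. In DIO callus it was higher again after d7. Lean callus was not followed beyond d10 here, so a later course cannot be told for it. In lean callus, type XI made up 79.3%, 84.4% and 92.8% of the length-corrected sum at d3, 51%, 39.6% and 31.6% at d5, 36.4%, 49.6% and 23.4% at d7 and 12.1%, 23.1% and 31.4% at d10. Its share in DIO callus was 84.8%, 88.5% and 69.4% at d3, 23%, 21.8% and 28.2% at d5, 15.4%, 17.3% and 14.1% at d7, 69.3%, 40.6% and 52.1% at d10, 93.1%, 93.7% and 82.8% at d14 and 96.4%, 78.1% and 93.1% at d21. The 3 DIO libraries of d7 all had a lower type XI share than every lean library of d3 to d10 except lean d10 replicate 1, and the libraries of d14 and d21 overlapped those of d3.

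**Figure D1:**
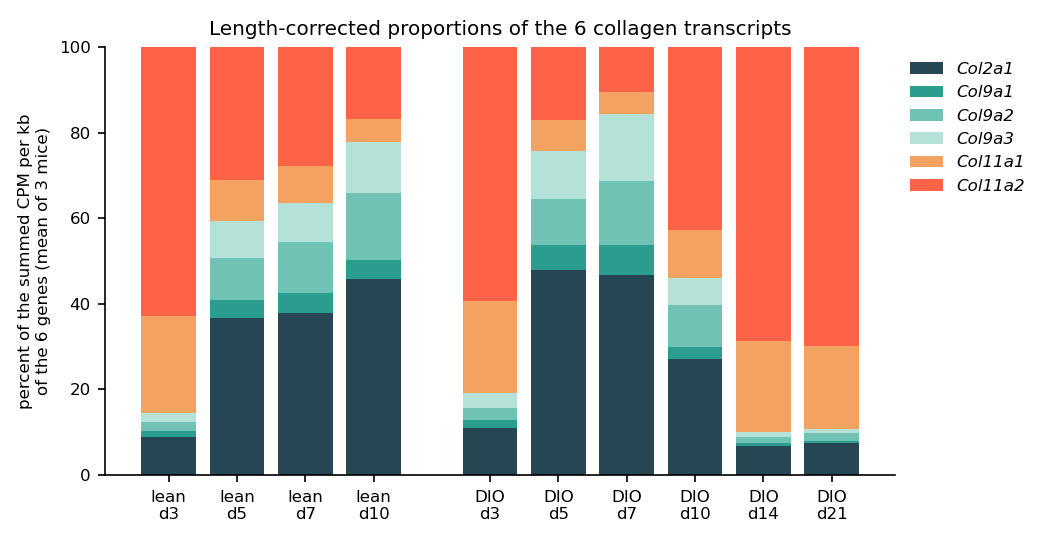
Length-corrected proportions of the 6 collagen transcripts, as the mean percent of their summed CPM per kb (vertical axis) in each group of 3 mice, by diet and day (horizontal axis). The type XI chains made up 85.5% of the sum in lean callus of d3 and 22.2% on d10 (27.3% without replicate 1), and in DIO callus 15.6% on d7 and 89.2% on d21.

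Col2a1, the chain of the fibril's main collagen, covered the widest range of levels in absolute terms. Lean callus held 144, 150.1 and 99.6 CPM of Col2a1 in the 3 libraries of d3, 1022, 1707 and 5990.4 on d5, 3205, 2226 and 9739 on d7 and finally 46848, 8843 and 7149 on d10. The d3 libraries were the lowest in lean callus and did not overlap any later day, but in the groups of d5, d7 and d10 a single library stood well above the other 2. DIO callus held 81.4, 98.6 and 408 CPM on d3, then 10379, 7831 and 5118 on d5, 22049, 9508 and 26787 on d7, 1184, 4011 and 2007 by d10, 193, 124 and 605 by d14 and 49.5, 513 and 119 by d21. In DIO callus the highest levels were on d7, and the ranges of d14 and d21 overlapped that of d3. Ordered by mean, lean d10 (20947 ± 22447 CPM) and DIO d7 (19448 ± 8928) stood at the top and lean d3 (131 ± 27.5) at the bottom, a ratio of 159.7. The only neighbours in that order whose ranges did not overlap were DIO d10 and DIO d14. Without lean d10 replicate 1 the mean of lean d10 was 7996 CPM, DIO d7 alone led the order, and the ratio was 148.

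The 3 type IX genes followed the same course at lower levels. The lean libraries of d3 held 13.2, 12.8 and 6.85 CPM of Col9a1, those of d5 68.9, 94 and 361, those of d7 189, 153 and 669.9 and those of d10 1777, 521 and 487. The DIO libraries of d3 held 8.11, 13.1 and 34.4 CPM, those of d5 646, 514 and 333, those of d7 1767, 1042 and 1618, those of d10 47.8, 213 and 149, those of d14 10.3, 5.48 and 29.2 and those of d21 2.82, 15.8 and 4.19. For Col9a1 the highest group mean was on DIO d7 (1476 ± 383 CPM) and the lowest on DIO d21 (7.60 ± 7.13), a ratio of 194. For Col9a2, the lean values were 11.5, 11.3 and 9.35 CPM at d3, 94.7, 157 and 511 at d5, 359, 256 and 918 at d7 and 4901, 1197 and 778 at d10. Its DIO values were 7.57, 10.3 and 32.1 CPM at d3, 749, 606 and 395 at d5, 2061, 1240.4 and 2808 at d7, 128, 443 and 287 at d10, 13.4, 8.26 and 45.9 at d14 and 2.88, 42.7 and 7.15 at d21. Here lean d10 had the highest mean (2292 ± 2269 CPM) and lean d3 the lowest, a ratio of 214. The mean of Col9a2 in lean d10 without replicate 1 was 988 CPM, 92.2 times that of lean d3, and DIO d7 (2036 ± 784 CPM) was the highest group, at 190.0 times lean d3. For Col9a3, 16.7, 13.3 and 9.15 CPM were counted in lean callus of d3, 95.9, 183 and 553 in that of d5, 330.0, 255 and 881 in that of d7 and 4744, 1113 and 702 in that of d10. DIO callus of d3 had 12.2, 17.1 and 43.3 CPM, that of d5 969, 823 and 481, that of d7 2422, 1844 and 3375, that of d10 84.5, 392 and 225, that of d14 12.5, 8.49 and 46.7 and that of d21 2.88, 32.5 and 5.49. For Col9a3 the order was again led by DIO d7 and ended with lean d3, a ratio of 195. In the order of group means, all 3 genes had a gap without overlap below lean d5 and DIO d10, so that these groups and those above them were separated from d3, d14 and d21. Above the gap, neighbouring groups overlapped except DIO d7 and DIO d5 for Col9a2.

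The type XI genes were well expressed on every day and varied far less. Col11a1 stood at 391, 461 and 686 CPM in the lean libraries of d3, at 569, 603 and 1473 in those of d5, at 973, 1132 and 2079 in those of d7 and at 2712, 1436 and 2106 in those of d10. With the high-fat diet it stood at 238, 631 and 592 CPM on d3, at 1786, 1712 and 1238 in callus of d5, at 3157, 2226 and 2525 in callus of d7, at 1079, 1231 and 1371 in callus of d10, at 1303, 842 and 1378 in callus of d14 and at 578, 731 and 679 in callus of d21. The highest group mean of Col11a1, on DIO d7, was 5.41 times the lowest, on DIO d3. Col11a2 had 479.8, 714 and 1183 CPM in lean callus at d3, 980.3, 1035 and 2470.3 at d5, 1777, 2229 and 2481 at d7 and 6298, 2817 and 2957 at d10. In the DIO libraries it had 484, 773 and 810.0 CPM at d3, 2608, 1678 and 1685 at d5, 3349, 1838 and 4288 at d7, 2531, 2726 and 2234 at d10, 2131, 1537 and 2498 at d14 and 1079, 1586 and 1261 at d21. For Col11a2 the ratio of the highest to the lowest group mean, lean d10 to DIO d3, was 5.84. That order rested on lean d10 replicate 1, without which the mean of lean d10 was 2887 CPM, DIO d7 (3158 ± 1236) was the highest group and the ratio was 4.58. In the order of the 10 group means, every pair of neighbours overlapped for both genes. In contrast to types II and IX, DIO libraries of d14 held 1537 to 2498 CPM of Col11a2, a range that overlapped that of DIO d7. This was not so for Col11a1, whose DIO d14 libraries (842 to 1378 CPM) all lay below those of DIO d7 (2226 to 3157 CPM).

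**Figure D2:**
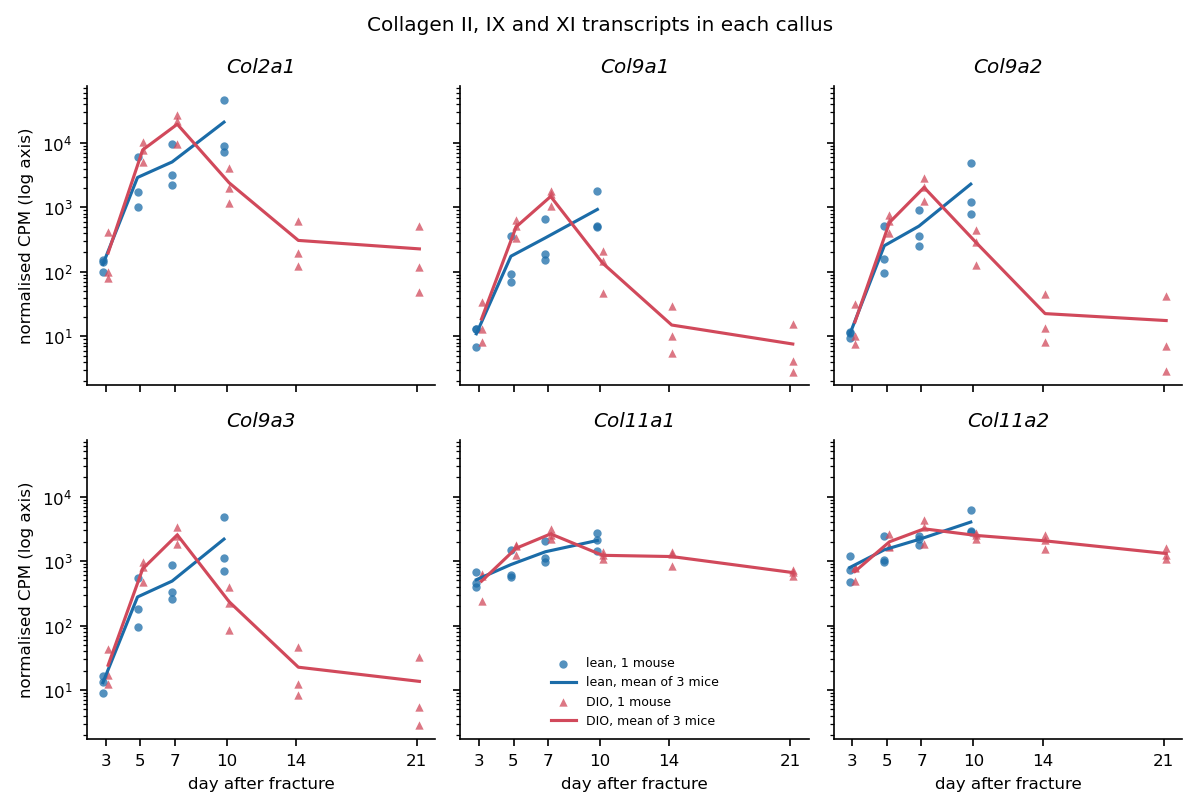
Normalised CPM of the 6 collagen genes on a log axis against the day after fracture, with 1 panel per gene, circles for lean and triangles for DIO calli, each from 1 mouse, and lines through the means of 3 mice. Col2a1 and the Col9 genes peaked on d7 in DIO callus and were highest on d10 in lean callus, where 1 mouse (lean d10 replicate 1, 46848 CPM of Col2a1) stood above the others, and the Col11 genes stayed within a range of 238 to 6298 CPM.

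In lean callus, the collagens of types II and IX passed the threshold within the first week and all 6 did by d10. Changes were tested with the quasi-likelihood F-test of edgeR, with adjusted p-values (Benjamini-Hochberg) over all genes tested and a threshold of 0.05, and are given on the log2 scale with their SE. The comparisons with d3 share its 3 libraries. From d3 to d5, Col9a2 rose by 4.60 ± 0.85 (SE, adjusted p = 0.0411), the only member past the threshold, where 0.443% of all genes rose. Col2a1, Col9a1 and Col9a3 had log2 changes of 4.50, 4.03 and 4.44 with adjusted p of 0.0596, 0.0572 and 0.0527, and for all 4 the d3 and d5 libraries did not overlap, where 11.9% of all genes were higher without overlap. From d3 to d7, 4 of the 6 rose, against 1.32% of all genes: Col2a1 by 5.29 ± 0.96 (SE, adjusted p = 0.019), Col9a1 by 4.96 ± 0.86 (SE, adjusted p = 0.0163), Col9a2 by 5.59 ± 0.89 (SE, adjusted p = 0.0111) and Col9a3 by 5.25 ± 0.90 (SE, adjusted p = 0.0163). Col11a1 and Col11a2 stood 1.46 ± 0.42 and 1.47 ± 0.45 higher on d7, with adjusted p of 0.111 and 0.125. Their d3 and d7 libraries did not overlap, where 12.3% of all genes were higher without overlap, and both passed with DESeq2 and with all 30 libraries in 1 fit, which each called 6 of the 6, so that a later rise of type XI is not shown. The calls of d5 and d7 were not stable when 1 library was left out. Without any 1 of the 6 libraries of d3 and d5 in turn, no member was past the threshold on d5. Without lean d3 replicate 1 or 2 none was on d7, and without lean d7 replicate 3 there were 2. The log2 change of Col9a2 stayed at 3.56 to 4.99 on d5 and at 4.87 to 5.92 on d7 in these fits.

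By d10 all 6 genes had risen from d3, against 15.2% of all genes. The increase was 7.36 ± 1.06 (SE, adjusted p = 0.000806) for Col2a1, 6.44 ± 0.92 (SE, adjusted p = 0.000772) for Col9a1, 7.78 ± 0.98 (SE, adjusted p = 0.000397) for Col9a2 and 7.43 ± 1.00 (SE, adjusted p = 0.000577) for Col9a3. The type XI chains rose less, Col11a1 by 2.06 ± 0.43 (SE, adjusted p = 0.00482) and Col11a2 by 2.38 ± 0.46 (SE, adjusted p = 0.00337). Without lean d10 replicate 1 all 6 remained past the threshold, with increases of 5.97 for Col2a1, 5.57, 6.57 and 6.17 for Col9a1, Col9a2 and Col9a3, and 1.82 and 1.91 for Col11a1 and Col11a2. Between neighbouring later days no member was called. From d5 to d7 the differences were 0.52 to 1.00, and no gene of 16471 passed the threshold (0%) with edgeR, where 926 had an unadjusted p under 0.05 and DESeq2 called 38. From d7 to d10, where 2.73% of all genes passed, the differences of Col2a1, Col9a2 and Col9a3 were 2.07 ± 0.83, 2.18 ± 0.76 and 2.18 ± 0.78 with adjusted p of 0.145, 0.107 and 0.114. Without lean d10 replicate 1 these 3 differences were 0.69, 0.98 and 0.92.

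In DIO callus all 6 genes had risen by d5, against 1.39% of all genes. Col2a1 rose by 5.31 ± 0.93 (SE, adjusted p = 0.00628), and the type IX genes by 4.75 ± 0.77 (Col9a1), 5.13 ± 0.92 (Col9a2) and 4.97 ± 0.88 (Col9a3), with adjusted p of 0.00318, 0.00704 and 0.00679. The type XI genes rose by 1.70 ± 0.30 (SE, adjusted p = 0.00678) for Col11a1 and 1.53 ± 0.30 (SE, adjusted p = 0.013) for Col11a2. Without DIO d3 replicate 1, 2 of the 6 passed. By d7 the increases over d3 were 6.63 ± 0.99 (SE, adjusted p = 0.000411) for Col2a1, 6.32, 6.94 and 6.72 for Col9a1, Col9a2 and Col9a3, and 2.44 ± 0.31 and 2.20 ± 0.31 for Col11a1 and Col11a2. All 6 passed the threshold, against 4.67% of all genes, and they passed it whichever single library was left out. On the same days 4 of 6 erythroid markers rose (median 2.20, summed 706 to 776 CPM on d3 and 782 to 7563 on d7), as did 3 of 6 osteoblast markers (median 1.07, summed 388 to 760.4 and 527 to 1005 CPM), and their part in the collagen values was not tested. The step from d5 to d7 itself called none of the 6, with differences of 0.67 to 1.80 and adjusted p of 0.271 to 0.466, and 3 of 16995 genes overall (0.0177%).

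After d7 these transcripts fell in DIO callus. From d7 to d10, 5 of the 6 fell, against 7.01% of all genes. The change was -3.02 ± 0.84 (SE, adjusted p = 0.0229) for Col2a1, -3.43 ± 0.72 (SE, adjusted p = 0.00368) for Col9a1, -2.83 ± 0.82 (SE, adjusted p = 0.0288) for Col9a2, -3.45 ± 0.82 (SE, adjusted p = 0.0091) for Col9a3 and -1.10 ± 0.30 (SE, adjusted p = 0.0193) for Col11a1. Col11a2 differed by -0.34 ± 0.30 with adjusted p = 0.519, and its libraries of d7 and d10 overlapped. The number of calls was 2 without DIO d7 replicate 1 or DIO d10 replicate 1 and 3 without DIO d10 replicate 2 or 3. From d10 to d14, Col9a1 fell further, by 3.19 on the log2 scale (SE 0.72, adjusted p = 0.0483), against 0.177% of all genes. Col2a1, Col9a2 and Col9a3 had differences of -2.97, -3.67 and -3.37 with adjusted p of 0.0954, 0.0526 and 0.0631 and no overlap between the days, where 8.58% of all genes were lower without overlap. Which of these passed depended on single libraries: 4 did without DIO d14 replicate 3, 3 without DIO d10 replicate 1, and none without DIO d10 replicate 2 or 3 or DIO d14 replicate 1 or 2. The type XI genes differed by -0.06 ± 0.29 and -0.28 ± 0.30 between d10 and d14.

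Between d14 and d21 no member passed the threshold, while 19.6% of all genes did. The differences ran from -0.99 (Col9a1) to -0.36 (Col9a2), and that of Col11a1 was -0.83 ± 0.30 with adjusted p = 0.0576. Leaving out DIO d14 replicate 2 or DIO d21 replicate 2 gave 1 call. Set against d3, the callus of d21 had Col2a1, Col9a1, Col9a2 and Col9a3 at differences of 0.21 ± 0.78, -1.29 ± 0.69, 0.08 ± 0.79 and -0.83 ± 0.77, none past the threshold. Col11a2 was the member that had risen from d3 to d21, by 0.93 ± 0.30 (SE, adjusted p = 0.0181), against 23.5% of all genes, and it lost the call without DIO d3 replicate 1. DIO d21 replicate 2 held the most Col2a1 of its group, at 513 CPM against 49.5 and 119, and also the most muscle marker RNA (12527 against 366 and 2311 CPM). Without it 2 members passed against d3. The summed erythroid markers, led by Hbb-bs, were 25217 to 36065 CPM on d21 against 706 to 776 on d3, with 6 of 6 higher, and the summed leukocyte markers 1561 to 2195 against 654 to 1174, with 5 of 6 higher. Their part in the collagen values was not tested.

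The diets were compared within each of the 4 shared days. On d3 no gene passed the threshold with edgeR (0 of 15772, 0%), where 2374 had an unadjusted p under 0.05 and DESeq2 called 726. The DIO minus lean differences of the 6 collagens on d3 ran from -0.19 (Col11a2) to 0.90 (Col9a3), and the diets overlapped for all 6. On d5 none of the 6 passed, while 1.08% of all genes did. The differences on d5 were 1.42 ± 0.61 for Col2a1, 1.51 ± 0.59, 1.20 ± 0.57 and 1.45 ± 0.59 for Col9a1, Col9a2 and Col9a3, and 0.84 ± 0.37 and 0.41 ± 0.37 for Col11a1 and Col11a2, with adjusted p of 0.23 to 0.625. The overlap on d5 came from lean d5 replicate 3, whose 5990.4 CPM of Col2a1 lay within the DIO range, and without it all 6 passed. On the same day the summed leukocyte markers were 538 to 609 CPM in DIO and 1062 to 1624 in lean callus, with 4 of 6 lower in DIO.

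On d7 all 6 means were higher in DIO callus. Col9a3 was the 1 member past the threshold, higher in DIO callus by 2.39 ± 0.46 (SE, adjusted p = 0.0307), where 1.40% of all genes were higher. Col2a1, Col9a1 and Col9a2 had differences of 1.95 ± 0.57, 2.13 ± 0.52 and 2.00 ± 0.47 with adjusted p of 0.121, 0.0688 and 0.064. The diets did not overlap for Col9a1, Col9a2, Col9a3 and Col11a1, 4 of the 6, where 10.2% of all genes were higher without overlap. For Col2a1, lean d7 replicate 3 (9739 CPM) exceeded DIO d7 replicate 2 (9508 CPM). Without lean d7 replicate 3, 5 members passed, and without lean d7 replicate 1 or 2 or DIO d7 replicate 1 none did. The type XI differences were 0.93 ± 0.31 (SE, adjusted p = 0.163) for Col11a1 and 0.56 ± 0.31 (SE, adjusted p = 0.416) for Col11a2, the last with a 95% confidence interval of -0.13 to 1.25. On d7, 2 of 6 osteoblast markers (median -1.11), 1 of 6 leukocyte markers (median -0.70) and 1 of 4 adipocyte markers tested (median -1.18) were lower in DIO callus, and no marker of these lists had a higher mean. The osteoblast sum was 527 to 1005 CPM in DIO and 1454 to 1950.2 in lean callus, and the part of these cells in the collagen values was not tested.

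On d10 the estimates had the opposite sign. All 3 DIO libraries lay below all 3 lean libraries for each of the 6 collagens, where 7.31% of all genes were lower without overlap. The DIO minus lean differences were -3.11 ± 0.78 for Col2a1, -2.75 ± 0.65 for Col9a1, -2.99 ± 0.72 for Col9a2, -3.21 ± 0.79 for Col9a3, -0.75 ± 0.27 for Col11a1 and -0.67 ± 0.33 for Col11a2. None passed the threshold in edgeR (adjusted p = 0.686 for all 6), and neither did any of the 15341 genes tested (0%). At an unadjusted p under 0.05 there were 1082 genes, 5 of the members among them, and DESeq2 called 41 genes. Without lean d10 replicate 1 the differences were -1.74 for Col2a1, -1.88, -1.79 and -1.96 for the type IX genes and -0.53 and -0.21 for the type XI genes, with adjusted p of 0.0753 to 0.0889 for types II and IX and 0.764 and 1 for type XI. The 8 muscle markers summed to 18238 to 25063 CPM in DIO callus of d10 and 1071 to 14643 in lean callus. None of the 8 passed the test, all 8 had a higher mean in DIO callus, and their part in the collagen difference was not tested.

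The change of the diet difference from d7 to d10 was tested directly, as the diet-by-day interaction over 24 libraries of both diets. It passed the threshold for 4 of the 6 collagens, where 3.37% of all genes had such a decrease. The interaction was -5.07 ± 1.14 (SE, adjusted p = 0.0143) for Col2a1, -4.89 ± 1.01 (SE, adjusted p = 0.00886) for Col9a1, -5.00 ± 1.02 (SE, adjusted p = 0.00797) for Col9a2 and -5.61 ± 1.05 (SE, adjusted p = 0.00541) for Col9a3. For the type XI genes it was -1.68 ± 0.54 (SE, adjusted p = 0.0724) for Col11a1 and -1.23 ± 0.56 (SE, adjusted p = 0.189) for Col11a2. Without lean d10 replicate 1 it was -4.01, -3.78 and -4.33 for Col9a1, Col9a2 and Col9a3 (adjusted p = 0.0366, 0.0352 and 0.0186), which stayed past the threshold, and -3.67 for Col2a1 (adjusted p = 0.0703), which did not. In the same test 2 of 6 osteoblast markers (median 1.56) and 1 of 6 adipocyte markers (median 3.64) had a diet difference that increased, 0 and 1 without lean d10 replicate 1. For the collagens no such change was called from d3 to d5, where edgeR called no gene (0%), 736 had an unadjusted p under 0.05 and DESeq2 called 1, or from d5 to d7, where 0.00586% of genes were called and the differences of the members were 0.09 to 0.94.

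Over the whole course of d3 to d10, fitted as a polynomial of degree 2 in the day, the diets differed for the same 4 genes, against 8.13% of all genes. The adjusted p was 0.032 for Col2a1, 0.0177 for Col9a1, 0.0245 for Col9a2 and 0.0159 for Col9a3, and 0.0655 and 0.307 for Col11a1 and Col11a2. Without lean d10 replicate 1, 3 passed, and without DIO d10 replicate 1 or 3, 2 did. These tests share libraries with the comparisons within days and with each other, so they are not separate evidence. The highest level of Col2a1 in DIO callus, on d7 (19448 ± 8928 CPM), and in lean callus, on d10 (20947 ± 22447 CPM), fell on different days and are given side by side without a test.

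**Figure D3:**
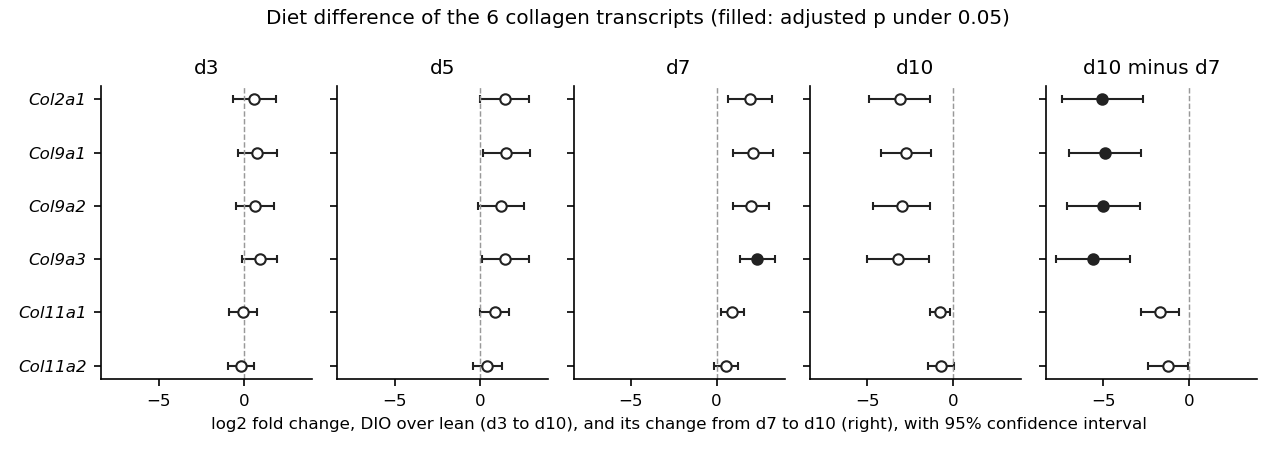
Diet difference of the 6 collagen genes, as the log2 fold change of DIO over lean callus (horizontal axis) on d3, d5, d7 and d10 and, in the panel at the right, its change from d7 to d10. Points are edgeR estimates from 3 mice a group with bars for the 95% confidence interval, filled where the adjusted p was under 0.05, and the estimates of Col2a1 passed from 1.95 on d7 to -3.11 on d10.

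Ratios between the chains within a library do not depend on the scaling of libraries and were compared per kilobase, as the geometric mean of 3 libraries. Col2a1 to Col11a2, a fibril chain to a core chain, was 0.130, 1.20, 1.43 and 2.85 on d3, d5, d7 and d10 in lean callus, the last 2.05 without replicate 1. In DIO callus this ratio was 0.165, 2.85, 4.44 and 0.634 on the same days, and 0.0899 and 0.0832 on d14 and d21. On d5 and d7 the ratio was higher in all 3 DIO libraries than in all 3 lean libraries, by 1.25 and 1.64 on the log2 scale, and on d10 it was lower in all 3, at a difference of -2.17, or -1.69 without lean d10 replicate 1. In a two-sided exact permutation test each of these 3 gave p = 0.1, the smallest that 3 against 3 libraries allow, and 0.2 after adjustment over the 30 ratio tests, so no ratio test could pass 0.05.

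Within types II and IX the proportions moved little beside the levels, whose highest and lowest group means were 159.7 to 214 times apart (148 to 195 without lean d10 replicate 1). Col2a1 to Col9a2 lay at 2.80 to 5.03 per kb in the 10 groups. The type IX chains, which share a trimer, were not equal: Col9a1 to Col9a2 lay at 0.277 to 0.692 and Col9a3 to Col9a2 at 0.619 to 1.23. Col9a1 to Col9a2 was 0.601 on d3 and 0.282 on d10 in lean callus, a log2 difference of -1.09 (-0.91 without lean d10 replicate 1), and in DIO callus it was 0.692 on d3 and 0.456 on d7, a difference of -0.60 (exact permutation p = 0.1 for both). Col9a3 to Col9a2 was higher in all DIO than in all lean libraries on d5 and d7, by 0.25 and 0.42, and lower in all on d10, at -0.28 (-0.25 without lean d10 replicate 1, exact permutation p = 0.1 for each). Col11a1 to Col11a2 lay at 0.265 to 0.472, and its diet difference was -0.02 at d3, 0.45 at d5, 0.51 at d7 and -0.13 at d10.

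Genes that act with these collagens were described from 7 lists of cartilage and collagen genes, by the number past the threshold and the median log2 change of a list, beside a median over all genes tested of -0.02 to 0.03 in these comparisons. From d7 to d10 in DIO callus, 2212 of 16995 genes passed the threshold in either direction and 1191 of them fell. The list counts of those days stand beside these numbers. The listed chondrogenic factors, Sox5, Sox6, Sox9 and Nkx3-2, rose to d7 and fell to d10 in DIO callus. From d3 to d7, 4 of 4 rose, Sox5 by 2.25 ± 0.29 (SE, adjusted p = 0.000124), Sox9, the main activator of Col2a1, by 2.19 ± 0.31 (SE, adjusted p = 0.00024) and Sox6 by 1.36 ± 0.29 (SE, adjusted p = 0.00792). From d7 to d10, 4 of 4 fell (median -2.64), Sox9 at -3.03 ± 0.32 (SE, adjusted p = 1.1e-05). Sox9 stood at 34.7 ± 9.46 CPM on d3, 159 ± 8.69 on d7 and 19.4 ± 6.95 on d10. From d10 to d14, when the type II and IX genes differed by -3.67 to -2.97, none of the 4 factors passed, 1 had a higher mean and their median was -0.59. In lean callus 2 of 3 tested rose from d3 to d10, Sox5 by 1.89 ± 0.49 (SE, adjusted p = 0.0141) and Sox9 by 1.80 ± 0.59 (SE, adjusted p = 0.0369), but 0 did without lean d10 replicate 1. Sox9 and Nkx3-2, a repressor of chondrocyte maturation, were higher in DIO than in lean callus on d7, by 1.90 ± 0.39 (SE, adjusted p = 0.041) and 2.85 ± 0.59 (SE, adjusted p = 0.041), and the change of the diet difference from d7 to d10 passed for 3 of 4, Sox9 at -3.69 ± 0.68 (SE, adjusted p = 0.00487), and for 1 without that library.

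The other matrix proteins of cartilage moved with the collagens in most cases. From d3 to d10 in lean callus 16 of 18 rose (median 5.14) and 2 fell, 14 and 2 without lean d10 replicate 1. Cnmd (chondromodulin, an inhibitor of vessel growth) rose by 7.87 ± 1.05 (SE, adjusted p = 0.000558) and Chad (chondroadherin, which binds type II collagen) by 6.51 ± 0.73 (SE, adjusted p = 0.000186). Prg4 (lubricin of the joint surface) changed by -3.56 ± 0.39 (SE, adjusted p = 0.000176). From d3 to d7 in DIO callus 15 of 19 rose (median 5.13), Cnmd by 9.31, Ucma, a small secreted protein of cartilage, by 10.52 and Scrg1 by 5.67, and from d7 to d10 14 of 19 fell (median -2.72). On d7, 7 of 19 were higher in DIO callus, Ucma, Scrg1 and Epyc (epiphycan, a small proteoglycan) by 4.48, 2.71 and 3.65, and 13 of 19 had a diet difference that decreased from d7 to d10 (median -4.07), 9 without lean d10 replicate 1.

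The enzymes and chaperones that hydroxylate, fold and trim procollagen moved to a smaller extent. In lean callus 11 of 22 rose from d3 to d10 (median 0.70; 9 without lean d10 replicate 1), Pcolce2, an enhancer of procollagen trimming, by 3.58 ± 0.64 (SE, adjusted p = 0.00235). In DIO callus 8 of 22 rose from d3 to d7, P3h2, a prolyl 3-hydroxylase, by 2.17 ± 0.22 (SE, adjusted p = 1.1e-05), Colgalt2, which adds galactose to hydroxylysine, by 3.19 ± 0.35 (SE, adjusted p = 2.6e-05), and Adamts3, which trims the amino end of procollagen II, by 1.93 ± 0.23 (SE, adjusted p = 6.0e-05). From d7 to d10, 12 of 22 fell and 2 rose, with P3h2 at -2.33, Adamts3 at -1.98 and Plod3, a lysyl hydroxylase, at -1.42. On d7, 8 of 22 were higher in DIO callus, and the change of the diet difference from d7 to d10 passed for 13 of 22, P3h2 at -3.85 ± 0.64 (SE, adjusted p = 0.00317), and for 7 without lean d10 replicate 1.

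Of the genes of hypertrophic cartilage, 6 of 8 rose from d3 to d10 in lean callus (5 without lean d10 replicate 1), Col10a1, the collagen of hypertrophic chondrocytes, by 9.75 ± 1.59 (SE, adjusted p = 0.00151) and Ihh (Indian hedgehog) by 6.22 ± 0.90 (SE, adjusted p = 0.000852). From d7 to d10 in DIO callus 1 of 8 hypertrophy genes rose, Mmp13, the collagenase that cleaves type II collagen, by 1.82 ± 0.41 (SE, adjusted p = 0.0058), and 0 fell. Of all 16995 genes tested, 2212 passed in either direction and 1191 of them fell, so 1 rise among 8 is not read as a result about the list. The diet difference of 2 of 8 hypertrophy genes decreased from d7 to d10, as it did for types II and IX (0 without lean d10 replicate 1). Over the 30 libraries the r of the 8 with Col2a1 ran from 0.259 (Runx2) to 0.946 (Ihh). Of the degradation list, which also holds Mmp13, 3 of 8 rose from d7 to d10 in DIO callus, Ctsk (cathepsin K) by 2.77 and Mmp9 by 2.63. In lean callus 3 of 8 degradation genes rose over the same days too (2 without lean d10 replicate 1), where none of the 6 collagens passed the threshold. On d7, 2 of 8 degradation genes were lower in DIO callus, Mmp9 at -1.27 and Ctsk at -1.17, and the same 2 had a diet difference that increased from d7 to d10, by 1.22 and 1.43, a call that neither kept without lean d10 replicate 1. Ctsk and Mmp9 are made by osteoclasts.

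Other fibrillar and fibril-associated collagens were split. From d3 to d10 in lean callus 6 of 13 rose (4 without lean d10 replicate 1), and from d7 to d10 in DIO callus 6 of 13 fell and 2 rose. Col27a1, a fibrillar collagen of cartilage, went with the members, at 2.15 ± 0.26 (SE, adjusted p = 6.0e-05) from d3 to d7 and -2.44 ± 0.26 (SE, adjusted p = 1.1e-05) from d7 to d10 in DIO callus, while Col22a1 rose by 2.01 ± 0.30 (SE, adjusted p = 0.000219) from d7 to d10. Of 7 collagen receptors 1 rose in lean callus from d3 to d10, near the 15.2% of all genes that rose, and none passed in DIO callus from d3 to d7. The receptor that rose was Itga10, the chondrocyte integrin for type II collagen, by 1.59 ± 0.31 (SE, adjusted p = 0.00357). Without lean d10 replicate 1, 1 receptor rose and 1 fell.

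**Figure D4:**
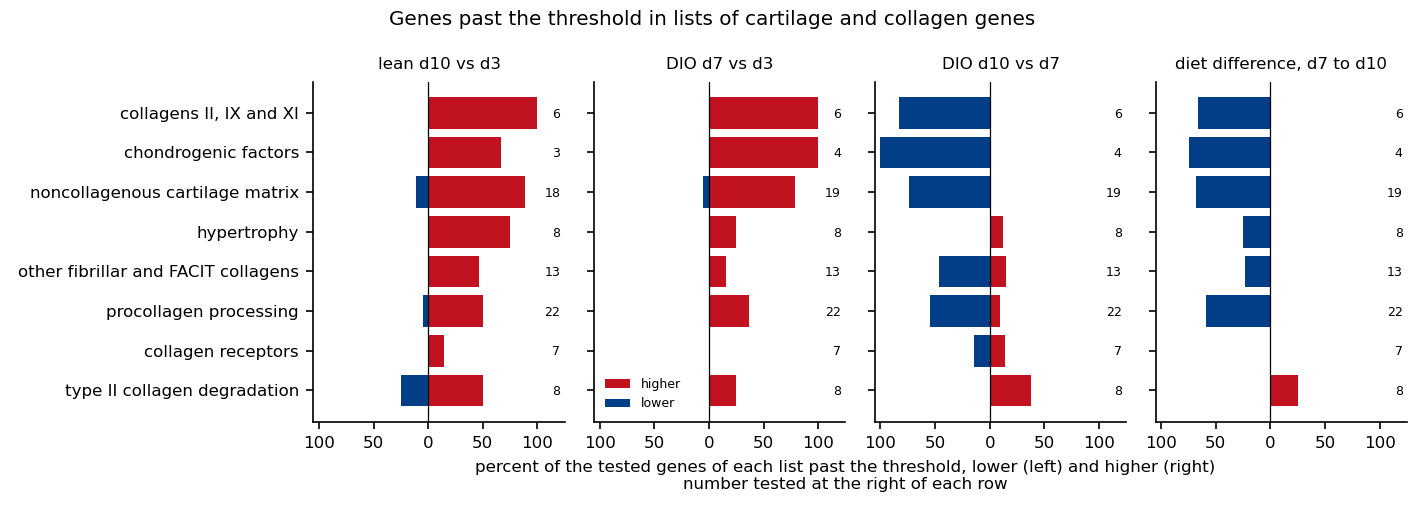
Percent of the tested genes in each list past the threshold of edgeR in 4 comparisons, with lower genes to the left and higher genes to the right of 0 on the horizontal axis and the number tested at the right end of each row. In DIO callus from d7 to d10, 4 of 4 chondrogenic factors, 14 of 19 matrix genes and 5 of 6 members fell, while 3 of 8 degradation genes rose. In lean callus over the same days, not drawn here, 3 of 8 degradation genes rose too (2 without lean d10 replicate 1).

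Markers of other tissues moved over the same days. The summed osteoblast markers, led by Dmp1, went from 564 to 1037 CPM on d3 to 2508 to 3752 on d10 in lean callus (5 of 6 higher). In DIO callus they went from 527 to 1005 on d7 to 2698 to 3498 on d10 (5 of 6 higher), while the adipocyte markers, led by Fabp4, went from 141 to 175 to 234 to 394 CPM (4 of 6 higher). The leukocyte markers in lean callus went from 1339 to 2061 on d3 to 491 to 819 on d10 (5 of 6 lower). All 6 leukocyte, 8 muscle, 6 osteoblast and 6 erythroid markers were detected with at least 3 counts in each library, as were 4 tendon markers, whose sum was 275 to 766 CPM in DIO callus of d7 and 161 to 208 on d10. Their part in the collagen changes was not tested.

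The genes whose pattern was most like that of Col2a1 were found by Pearson's r of log2 CPM over the 30 libraries, as a description, since the libraries share days and diets. Of 17356 other genes, Col9a2 (0.996), Col9a3 (0.991) and Col9a1 (0.987) ranked 1, 2 and 3. Col11a1 (0.850) ranked 113 and Col11a2 (0.787) ranked 243, and the r between them was 0.915. The 10 nearest genes outside the 6 were Cnmd (0.981), Ncmap, Itih5l-ps, Comp (cartilage oligomeric matrix protein, 0.975), Scube1, Matn3 (matrilin 3, 0.969), Foxa3, Ppp1r1b, Eps8l2 and Wscd2 (0.960). Of these, Cnmd, Comp and Matn3 were in the list of noncollagenous matrix genes. Ranked by Spearman's rho 8 of the 10 stayed among the 10 nearest, by the 12 lean libraries alone 7 and by the 18 DIO libraries alone 8.

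The list genes differed in how closely they followed Col2a1 and each of the type XI chains. Over the 30 libraries, the r of Col10a1 was 0.901 with Col2a1 and 0.865 with Col11a2, and for Sox9 it was 0.756 and 0.368. The other factors had an r with Col2a1 of 0.832 (Sox5), 0.595 (Nkx3-2) and 0.0292 (Sox6). For Mmp13 it was 0.284 with Col2a1 and 0.687 with Col11a2, and for the osteoblast marker Dmp1, which leads its list, 0.203 and 0.679. Col1a2, a chain of the bone collagen type I, had an r of 0.431 with Col2a1 and 0.791 with Col11a2. The other type I chain, Col1a1, had an r of 0.612 with Col2a1 and 0.692 with Col11a2. The genes of type V collagen went the other way. Their r with Col2a1 and with Col11a2 was 0.571 and 0.119 for Col5a1, 0.723 and 0.655 for Col5a2, and 0.432 and -0.0594 for Col5a3. With Col11a1 the r was 0.862 for Col10a1, 0.570 for Sox9, 0.558 for Mmp13, 0.472 for Dmp1, 0.665 for Col1a2 and 0.618 for Col1a1. The genes of types I and V were chosen after their values were seen.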

How the data were processed

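Callus RNA-seq of 30 mice was analysed (12 lean and 18 DIO libraries, 3 mice per diet and day). The authors demultiplexed with bcl2fastq, trimmed with BBDuk, aligned to GRCm38 with HISAT2 2.1.0 and deposited raw HTSeq read counts per gene, not normalized. The HTSeq version, strand option and annotation are not given in the sources used here. Symbols and exon lengths were taken from GENCODE M21 by Ensembl identifier (42462 of 43629 matched).

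From the counts, TMM factors, filterByExpr at its defaults and quasi-likelihood F-tests were computed with edgeR 4.0.16 in R 4.3.3, two-sided, with Benjamini-Hochberg adjustment over all genes tested and a threshold of 0.05. Lean days were tested in 1 fit of 12 libraries, DIO days in 1 fit of 18, diets in the 6 libraries of each day, and interactions and the time course in 24. Levels are CPM with TMM factors over 30 libraries. Ratios are log2 ratios of counts + 0.5, tested by exact permutation over 20 splits. Likeness is Pearson's r of log2 CPM with a prior count of 2, over 17357 genes. Alternatives were RLE factors, total counts only, DESeq2 1.42.0, no filter but 1 count, the replicate number as a block, all 30 libraries in 1 fit, and each library left out in turn. The counts of the lists without lean d10 replicate 1 were added after seeing the data. The tests were also run on simulated data with the same dispersion for every gene, which does not show how they behave at the spread of these libraries.

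The members and lists were chosen with earlier results of these data known. Named are up to 3 genes of each list, by adjusted p in a comparison, the 10 genes most like Col2a1 and the markers that lead a sum. Replicates are separate mice, and libraries of a group differed beyond sampling noise (chi-square per degree of freedom 12.8 to 148). Replicate numbers index different mice in each group. The deviations of same-numbered libraries from their group means had all 3 r above 0.1 only for lean d7 and d5 (r = 0.277, 0.204 and 0.240), as a hint from the data. Over the comparisons of lean days, which share libraries, their mean r ran from 0.0314 to 0.240. Differently numbered libraries give no separate check, because deviations from a group mean cancel within each group. With the replicate block, 1479 genes were called from d7 to d10 in lean callus, against 450 without it, and none of the 6 collagens in either.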

Additional observations from a re-analysis of the deposited data

Results flagged for a closer look

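The diet difference of 4 collagens differed between d7 and d10 by the interaction test of edgeR. Its change was -5.07 on the log2 scale for Col2a1, -4.89 for Col9a1, -5.00 for Col9a2 and -5.61 for Col9a3. The estimates were positive on d7 and negative on d10 for each. Over the 6 alternatives with all libraries the change of Col2a1 lay between -5.09 and -4.72, and without lean d10 replicate 1, the callus with 1071 CPM of muscle markers, it was -3.67 with adjusted p = 0.0703. The muscle marker sum was 5957 to 17717 CPM in lean callus of d7, 1071 to 14643 in lean callus of d10, 7066 to 18901 in DIO callus of d7 and 18238 to 25063 in DIO callus of d10. In the interaction test, 2 of 6 osteoblast markers (median 1.56) and 1 of 6 adipocyte markers (median 3.64) passed with an increase, and no muscle, leukocyte, erythroid or tendon marker passed, while 6 of 6 leukocyte, 6 of 6 erythroid and 7 of 8 muscle markers had an estimate above 0. The part of these cells in the change was not tested.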

How the results depend on the processing

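RLE factors kept every call and direction of the 6 collagens. The number of the 6 past the threshold from d3 to d5 in lean callus was 2 with total counts only, 4 with DESeq2, 4 with no filter but 1 count, 2 with the replicate block and 4 with all 30 libraries in 1 fit. Over all genes these settings called 83, 583, 169, 199 and 202, against 74 in the tests above. From d10 to d14 in DIO callus the number of the 6 was 3 with total counts, 4 with DESeq2, 4 with no filter, 0 with the block and 0 with all 30 libraries. All genes called there were 379, 552, 329, 45 and 2, against 129. From d14 to d21 the number of the 6 was 1 with DESeq2 and 1 with no filter, where 3832 and 3158 genes were called, against 3335. Between the diets on d7 the number of the 6 was 3 with DESeq2, 4 with no filter, 4 with the block and 0 with all 30 libraries. All genes called there were 944, 724, 320 and 675, against 366. Between the diets on d10 the number of the 6 was 3 with no filter, where 29 genes were called, against 0. The block otherwise left the counts of the 6 within 1.5 times. For the fits with 1 library left out, the genes called overall are not given here. With 1 library left out, the number of the 6 ran from 0 to 0 (lean d5 vs d3), 0 to 4 (lean d7 vs d3), 2 to 6 (DIO d5 vs d3), 2 to 5 (DIO d10 vs d7), 0 to 4 (DIO d14 vs d10), 0 to 1 (DIO d21 vs d14), 0 to 2 (DIO d21 vs d3), 0 to 6 (diets on d5), 0 to 5 (diets on d7), 3 to 5 (change from d7 to d10) and 2 to 5 (time course). The cause of these differences was not tested.

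Directions turned only where no test had passed. With total counts only, where the median log2 change of all genes ran from -0.27 (lean d10 vs d3) to 0.27 (change from d7 to d10), Col11a1 stood at 0.050 from d10 to d14 and its change from d5 to d7 at -0.043. With 1 library left out, the ranges were -0.0960 to 1.89 (Col2a1) and -0.0298 to 2.04 (Col9a1) from d5 to d7 in lean callus, -1.24 to 1.31 and -1.74 to 0.94 (Col2a1 and Col9a2) from d3 to d21, -0.19 to 0.10 (Col11a1) from d10 to d14, and -1.87 to 0.52, -2.17 to 0.70 and -2.43 to 0.37 (Col2a1, Col9a2 and Col9a3) from d14 to d21. Between the diets on d3 they were -0.53 to 0.96, -0.0271 to 1.13, -0.24 to 0.99, -0.30 to 0.27 and -0.45 to 0.22 for Col2a1, Col9a1, Col9a2, Col11a1 and Col11a2. For the change from d5 to d7 they were -0.58 to 1.42, -0.49 to 1.60, -0.22 to 1.53, -0.0693 to 1.67, -0.51 to 0.49 and -0.44 to 0.41 in the order of the 6 genes. The diet differences of ratios ran from -0.00784 to 0.31 (Col9a1 to Col9a2, d3), -0.20 to 0.19 (Col9a1 to Col9a2, d10), -0.17 to 0.20 (Col11a1 to Col11a2, d3), -0.30 to 0.0667 (Col11a1 to Col11a2, d10), -0.13 to 0.11 (Col2a1 to Col9a2, d7), -0.16 to 0.0787 (Col2a1 to Col9a2, d10) and -0.25 to 0.74 (Col2a1 to Col11a2, d3). With 49 reads at the least, counting error was small, and the spread between 3 mice set the precision.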
